A study of Mus musculus with 22 samples.

Results

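Immediate early genes are transcribed within minutes of a stimulus without new protein synthesis, and activity-dependent genes follow the firing of neurons. A set of 37 such genes was followed in RNA-sequencing counts of 3 mouse organs, out of 34585 entries in each count table. The members were chosen by name, from earlier knowledge of these pathways and with earlier results of these data known, and all 37 were found by their Ensembl identifiers. They were grouped by role into 7 AP-1 subunits and ATF3 (Fos, Fosb, Fosl2, Jun, Junb, Jund, Atf3), 5 EGR factors and their corepressor (Egr1, Egr2, Egr3, Egr4, Nab2), 3 NR4A orphan receptors (Nr4a1, Nr4a2, Nr4a3) and 4 other transcription factors (Npas4, Srf, Klf4, Klf10). The remaining members were 5 genes of signalling feedback (Dusp1, Dusp5, Dusp6, Sik1, Trib1), 5 growth arrest and early response genes (Btg2, Gadd45b, Gadd45g, Ier2, Ier5) and 8 synaptic and secreted effectors (Arc, Homer1, Bdnf, Nptx2, Vgf, Inhba, Ptgs2, Arl4d).

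The mice were of the C57BL/6 strain. Tol mice carried 1 copy of a transgene that encodes scrambled fragments of reporter and modifier proteins, placed at the Col1a1 locus by cassette exchange in embryonic stem cells and driven by the ubiquitous CAG promoter, and WT mice were their littermates. For thymus and for cerebrum, 4 mice of each genotype gave a library, and the cerebellum libraries came from 2 Tol animals and 4 WT animals. All libraries were made from poly(A) RNA of frozen tissue. The labels give neither age nor sex, the study's methods give 1 age range in weeks for all its experimental animals and none by library, and no source states the handling of the mice before the tissue was frozen.

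Calcium entry and growth factor receptors signal through the MAP kinase pathway and through protein kinases to transcription factors that are already present in the resting cell, chiefly SRF with its partners and CREB. These bind the CArG box and the cyclic AMP response element before genes such as Fos, Egr1 and Junb, whose products then form AP-1 dimers or bind GC-rich sites and switch on later genes. Neurons use the same response to reshape synapses through Arc, Homer1, Bdnf and Nptx2, and developing thymocytes use Egr and Nr4a genes downstream of the T cell receptor.

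The stretches before the start sites of 6 members are shown as examples. Fos, Junb, Btg2, Nr4a3 and Dusp5 are among 24 members that rose and fell together among the cerebra. Srf, which encodes the factor that binds the CArG box, varied least. Others of the 24, such as Fosl2, Jun and Dusp6, held no TGACG in their windows. Whether a motif goes with the shared variation was not tested. The stretches are RefSeq sequences of build GRCm38.p6, written 5′ to 3′ on the strand of the gene. Each begins 250 bases before the RefSeq start and ends at that start or at the GENCODE start of the gene, whichever comes first, so the GENCODE annotation shortened Nr4a3 by 152 bases, Dusp5 by 36 and Srf by 13. Capitals mark TGACG on either strand, the core of the cyclic AMP response element, and the CArG box, which is CC, then 6 bases that are each A or T, then GG. The windows lie at chr12:85473640-85473889, plus strand (Fos), chr8:84978749-84978998, minus strand (Junb), chr1:134079156-134079405, minus strand (Btg2), chr4:48045055-48045152, plus strand (Nr4a3), chr19:53528895-53529108, plus strand (Dusp5) and chr17:46556176-46556412, minus strand (Srf).
Fos: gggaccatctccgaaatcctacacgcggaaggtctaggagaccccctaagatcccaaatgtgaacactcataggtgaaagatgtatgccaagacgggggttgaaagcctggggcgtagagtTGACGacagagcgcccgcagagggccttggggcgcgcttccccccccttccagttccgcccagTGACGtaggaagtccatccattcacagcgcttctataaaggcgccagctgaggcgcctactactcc
Junb: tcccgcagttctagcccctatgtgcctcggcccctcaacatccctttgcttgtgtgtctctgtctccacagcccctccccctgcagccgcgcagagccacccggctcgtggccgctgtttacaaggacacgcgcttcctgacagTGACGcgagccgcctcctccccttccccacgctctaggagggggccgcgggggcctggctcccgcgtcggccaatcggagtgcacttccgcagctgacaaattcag
Btg2: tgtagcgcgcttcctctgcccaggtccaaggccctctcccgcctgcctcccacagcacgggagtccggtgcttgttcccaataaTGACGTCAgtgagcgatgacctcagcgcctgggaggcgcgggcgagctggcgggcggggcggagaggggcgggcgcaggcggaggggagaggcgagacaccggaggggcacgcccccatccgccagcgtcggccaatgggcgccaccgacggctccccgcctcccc
Nr4a3: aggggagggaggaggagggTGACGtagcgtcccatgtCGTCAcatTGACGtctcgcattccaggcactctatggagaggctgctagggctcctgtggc
Dusp5: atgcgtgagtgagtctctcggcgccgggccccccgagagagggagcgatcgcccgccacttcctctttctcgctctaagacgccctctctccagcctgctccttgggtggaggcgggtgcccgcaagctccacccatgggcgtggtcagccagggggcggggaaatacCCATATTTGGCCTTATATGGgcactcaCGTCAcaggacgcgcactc
Srf: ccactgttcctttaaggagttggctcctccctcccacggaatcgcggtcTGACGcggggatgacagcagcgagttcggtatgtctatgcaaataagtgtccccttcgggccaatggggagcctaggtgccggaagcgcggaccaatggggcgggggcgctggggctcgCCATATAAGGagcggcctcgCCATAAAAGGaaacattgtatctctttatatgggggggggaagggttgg
The Nr4a3 stretch held 3 copies of TGACG, Dusp5 and Srf each held 2 CArG boxes, and in Btg2 the marked stretch was the full palindrome TGACGTCA, read on both strands.

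A window from 250 bases before to 50 bases after a start was at hand for 28 of the 37 members (39 windows, since some genes have several starts), but not for Egr1, Egr3, Arc, Ier2, Klf10, Nptx2, Sik1, Vgf and Trib1. TGACG was present in 21 of the 39 windows (53.8%), against 20.8% of all 32851 windows and 27.3% of the 16424 windows of genes tested in an organ. The same pair of shares, over all windows and over windows of tested genes, follows for each motif. A CArG box was present in 6 windows (15.4%), those of Egr2, Dusp5 and Srf, against 1.63% and 1.35%, and TGACGTCA in 3 windows (7.69%), those of Arl4d, Btg2 and Dusp1, against 1.79% and 2.62%. The AP-1 site TGANTCA was found before Bdnf alone (2.56% against 7.81% and 5.74%), and GGGCGG, part of the GC box, in 56.4% of member windows against 35.7% and 56.1%. TATAAA stood in 7 windows (17.9% against 13.6% and 8.80%), and GCGNGGGCG, the site of the EGR factors, in 8 (20.5% against 5.55% and 9.36%). All letters were searched on both strands, TGACG lies within TGACGTCA, and a match describes the sequence only. The windows of Fos and Junb held no CArG box, but sites further upstream were not searched, so its absence from these genes does not follow. Members were also compact: the median span of the 37 genes was 6960 bases against 20120 bases over the 18300 genes tested in an organ, and 25 of them (67.6%) spanned under 10000 bases, against 31.7%.

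Total counts per library ran from 14543698 in Cerebrum Tol 4 to 34776973 in Thymus Tol 1. The Tol transcript itself checked the genotype labels, with 448 to 4628 counts in every Tol library and 0 to 2 counts in every WT library. In the cerebellum, the library labelled cerebellum Tol 2 went against its tissue label: the 8 markers of cerebellar granule cells summed to 218 CPM (counts scaled to equal library size) there and to between 2627 and 6145 in the other 5 libraries, and the 7 markers of Purkinje cells to 715 against 3689 to 9605. Its Slc17a6, a glutamate transporter of thalamus and midbrain, stood at 516 CPM. WT cerebella 1 and 2 also had more Slc17a6 (184 and 212 CPM) than the other 3 libraries (2.84 to 31.7 CPM). The 12 markers of thalamus and midbrain as a list, Slc17a6 among them, did not follow it. They summed to 1309 and 1430 CPM in Tol 1 and 2, and to 1427, 873, 1231 and 847 CPM in WT cerebella 1 to 4. Among the cerebra, the 9 markers of striatal projection neurons summed to 2950 CPM in WT 3 and to 1584 CPM in Tol 4, against 164 to 343 CPM in the other 6. In RNA of a tissue, fewer cells of a type and less RNA per cell cannot be told apart. The exons of Junb, Nab2 and Dusp1 overlap genes on the other strand (Prdx2; Stat6 and Nemp1; Ergic1), and whether the counting used the strand is not given in the sources used here, so part of their counts is uncertain.

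Levels of different genes were compared per length, as CPM per kilobase of annotated exon, averaged over the 4 WT libraries of an organ. The leading members differed in part between organs, and Jund was among the first 5 in each. Thymus was led by Btg2, an antiproliferative cofactor of deadenylation, at 155 ± 27.5 CPM per kb (SD), followed by Jund, an AP-1 subunit, at 71.7 ± 7.94. Srf (23.1), Egr1 (21.9) and Nr4a1 (19.9), a receptor induced by T cell receptor signalling, came next, and these 3 overlapped from one to the next. Cerebrum was led by Arc, a capsid-like protein of the postsynapse, at 184 ± 119 CPM per kb, and by Egr1, the zinc finger factor Zif268, at 152 ± 54.0, whose libraries overlapped those of Arc. Vgf, a neuropeptide precursor (90.4), Egr3 (84.9) and Jund (60.8) followed, and each of these overlapped the next in order. Cerebellum was led by Jund (48.8 ± 3.15) and by Dusp5, a nuclear phosphatase of ERK (36.9 ± 11.5), then by Nab2 (17.3), Fos (15.9) and Jun (15.7), and each of these 5 overlapped the next in order.

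Members above 10 CPM per kb numbered 12 in WT thymus, 22 in WT cerebrum and 9 in WT cerebellum, or 13, 25 and 12 with the length of the longest transcript in place of all exons. The lowest members were Npas4 (0.0617 CPM per kb) and Egr4 (0.0391) in thymus, Inhba (2.47) and the stress factor Atf3 (0.459) in cerebrum, and Ptgs2 (0.220) and Egr2 (0.0587) in cerebellum. Nab2, the corepressor of the EGR factors, had nearly the same level in all 3 organs, at 17.0 CPM per kb in thymus, 17.5 in cerebrum and 17.3 in cerebellum. Klf4 likewise stayed between 2.85 and 3.48 CPM per kb.

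**Figure D1:**
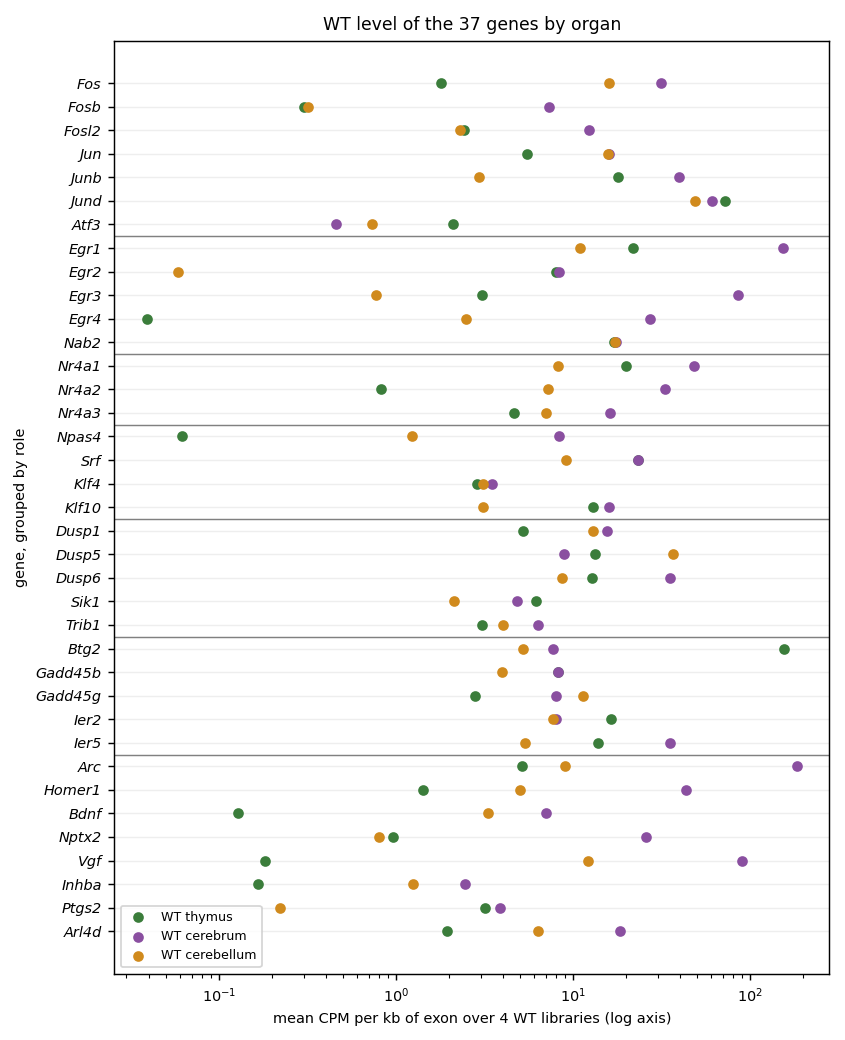
WT level of each of the 37 genes in thymus, cerebrum and cerebellum, as the mean CPM per kilobase of exon over 4 libraries on a log axis, with genes grouped by role. Btg2 stands far to the right in thymus, Arc and Egr1 lead in cerebrum, and Egr2 in cerebellum and Egr4 and Npas4 in thymus lie at the far left.

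The 12 WT libraries were compared between organs in a single fit with edgeR's quasi-likelihood test and Benjamini-Hochberg adjustment, and the 3 comparisons share libraries. Most genes differ between organs, so counts of members are set beside the share of all 17413 genes that passed. In cerebrum against thymus 29 of the 37 members passed an adjusted p of 0.05 (84.3% of all genes), 24 of them higher in cerebrum (40.9%) and 5 lower (43.4%). Their median log2 difference was 1.5, against -0.06 over all genes. Among the roles, 7 of the 8 synaptic and secreted effectors and all 3 NR4A receptors were higher in cerebrum, whereas of the 5 growth arrest and early response genes 2 were higher and 2 lower.

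Egr4, an EGR factor of neurons, was at 0.0940, 0.0484, 0.104 and 0.0897 CPM in WT thymi 1 to 4, 64.0, 64.5, 35.4 and 69.1 CPM in WT cerebra 1 to 4, and 6.63, 3.09, 6.06 and 5.67 CPM in WT cerebella 1 to 4. The thymus levels rest on 8 counts in all 4 libraries together, which gave a ratio of cerebrum to thymus of 690 (exact 95% interval for counting error only, 350 to 1599) and a fitted log2 difference of 9.31 (SE 0.40, adjusted p = 1.63e-10). Vgf was at 0.470, 0.872, 0.414 and 0.419 CPM in WT thymi and 254, 325, 259 and 237 CPM in WT cerebra, with a log2 difference of 8.94 (SE 0.41, adjusted p = 2.97e-10). Npas4, a factor that neurons induce on calcium entry and few other cells express, was at 0.470, 0.0969, 0.155 and 0.299 CPM in thymi, on 2 to 10 counts a library, and 38.9, 37.2, 9.37 and 52.0 CPM in cerebra, a difference of 6.98 (SE 0.60, adjusted p = 1.86e-07). These 3 genes were under 1 CPM in every WT thymus. Bdnf, a neurotrophin, was at 0.799, 1.11, 0.673 and 0.598 CPM in thymi and 44.9, 49.2, 32.1 and 49.5 CPM in cerebra (log2 difference 5.78, SE 0.26, adjusted p = 2.57e-10). Nr4a2, a receptor needed by dopamine neurons, was at 2.87, 3.20, 3.47 and 3.74 CPM in thymi and 215, 51.4, 117 and 151 CPM in cerebra (log2 difference 5.30, SE 0.40, adjusted p = 4.42e-08). Arc was at 14.9, 15.3, 14.8 and 17.8 CPM in thymi and 415, 1105, 325 and 401 CPM in cerebra (log2 difference 5.13, SE 0.39, adjusted p = 5.12e-08). In each of these 6 genes every cerebrum was above every thymus.

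In the other direction, Btg2 was at 424, 407, 343 and 525 CPM in WT thymi and 24.6, 22.9, 9.85 and 26.7 CPM in WT cerebra, a log2 difference of -4.36 (SE 0.27, adjusted p = 7.47e-09). Atf3 was at 3.43, 4.41, 7.71 and 2.57 CPM in WT thymi and 1.57, 0.708, 0.360 and 1.32 CPM in WT cerebra (log2 difference -2.19, SE 0.44, adjusted p = 0.000440), and Ier2, a nuclear early response protein, at 23.0, 25.8, 23.9 and 27.4 CPM in WT thymi and 12.4, 20.2, 6.37 and 9.95 CPM in WT cerebra (log2 difference -1.06, SE 0.27, adjusted p = 0.00306). All 3 had every cerebrum below every thymus. Dusp5, at 32.5, 33.7, 27.6 and 37.03 CPM in thymi and 25.2, 29.8, 14.7 and 18.2 CPM in cerebra (log2 difference -0.60, SE 0.25, adjusted p = 0.0419), and Jund, at 115, 139, 109 and 115 CPM in WT thymi and 99.2, 117, 93.8 and 95.5 CPM in WT cerebra (log2 difference -0.26, SE 0.09, adjusted p = 0.0200), overlapped between the organs. With 1 library left out, Dusp5 stayed under 0.05 in 5 of 12 fits (adjusted p from 0.0117 to 0.122) and Jund in 8 of 12 (0.00507 to 0.0716), and with the replicate number as a block Dusp5 reached 0.0787. The call of Jund was lost without thymus 2 or cerebrum 1, 3 or 4, and that of Dusp5 held without thymus 3, cerebrum 1 or 2, or cerebellum 2 or 3.

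In cerebellum against thymus 29 members passed (83.5% of all genes), 13 of them higher in cerebellum (41.7%) and 16 lower (41.8%), with a median of -0.01 against 0.01 over all genes. Vgf, at 54.1, 45.6, 22.2 and 22.4 CPM in WT cerebella, differed from thymus by 6.04 (SE 0.39, adjusted p = 1.06e-08), Egr4 by 5.87 (SE 0.43, adjusted p = 3.73e-08), and Npas4, at 5.58, 4.66, 3.21 and 6.85 CPM, by 4.21 (SE 0.61, adjusted p = 2.92e-05). The count ratio of cerebellum to thymus for Egr4 was 63.9 (exact 95% interval, 32.2 to 149). Bdnf (23.9, 13.7, 20.9 and 23.3 CPM in cerebella) and Nr4a2 (30.1, 24.5, 23.7 and 38.1 CPM) were also higher, by 4.67 (SE 0.25, adjusted p = 1.86e-09) and 3.09 (SE 0.38, adjusted p = 5.46e-06). Fos, the founding immediate early gene, was at 2.73, 4.36, 5.90 and 3.92 CPM in WT thymi and 43.4, 32.2, 21.0 and 52.7 CPM in WT cerebella (log2 difference 3.12, SE 0.43, adjusted p = 1.78e-05). Every cerebellum was above every thymus for these 6 genes.

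Of the members that were lower in cerebellum, Egr2, which acts in the positive selection of thymocytes, was at 27.1, 26.7, 23.4 and 31.5 CPM in WT thymi and 0.546, 0.0872, 0.0772 and 0.0873 CPM in WT cerebella, on 2 counts in each of cerebella 2, 3 and 4 and 13 in cerebellum 1. The ratio of thymus to cerebellum was 140 in counts (exact 95% interval, 89.5 to 233), and the fitted log2 difference was -7.09 (SE 0.56, adjusted p = 7.98e-08). Btg2, at 16.1, 11.4, 14.4 and 15.6 CPM in cerebella, differed from thymus by -4.92 (SE 0.28, adjusted p = 3.04e-09). Ptgs2, the inducible cyclooxygenase, was at 14.1, 15.98, 15.8 and 12.4 CPM in thymi and 1.80, 1.26, 0.618 and 0.349 CPM in cerebella (log2 difference -3.88, SE 0.41, adjusted p = 1.55e-06), and Junb, also of AP-1, at 39.1, 45.4, 41.7 and 38.4 CPM in WT thymi and 8.39, 7.24, 5.60 and 5.89 CPM in WT cerebella (log2 difference -2.63, SE 0.29, adjusted p = 2.11e-06). In both genes WT cerebella 1 and 2 lay above 3 and 4. Klf10, a zinc finger factor induced by TGF-beta, was at 59.6, 54.7, 47.1 and 53.7 CPM in thymi and 16.3, 8.76, 13.9 and 12.5 CPM in cerebella (log2 difference -2.09, SE 0.18, adjusted p = 2.40e-07). Egr3 was at 12.7, 15.8, 13.2 and 12.5 CPM in WT thymi and 10.1, 1.74, 0.772 and 0.917 CPM in WT cerebella (log2 difference -2.03, SE 0.60, adjusted p = 0.00685). WT cerebellum 1 was the highest for Egr2 and Egr3, and without it the fitted differences were -8.27 and -3.60. With WT cerebella 3 and 4 alone, the libraries with little Slc17a6, Egr3 differed by -4.02 and Ptgs2 by -4.89. Other markers also varied among the WT cerebella. The 8 of choroid plexus summed to 20.3, 1354, 21.2 and 4832 CPM in WT cerebella 1 to 4. The 7 of oligodendrocytes summed to 5211, 17535, 6633 and 7298 CPM. The part of these markers in the differences was not tested.

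In cerebrum against cerebellum 27 members passed (51.1% of all genes), 26 higher in cerebrum (24.6%) and 1 lower (26.4%), and the median was 1.54 against -0.03 over all genes. Members that differ in this way span every role. Egr2, at 28.8, 33.6, 10.1 and 40.6 CPM in WT cerebra, differed by 7.12 (SE 0.56, adjusted p = 9.22e-07), and Egr3, at 320.2, 533, 339 and 304 CPM, by 6.80 (SE 0.67, adjusted p = 5.20e-06), or by 8.37 without WT cerebellum 1. Nptx2, a pentraxin that clusters AMPA receptors, was at 49.4, 87.9, 60.2 and 64.3 CPM in cerebra and 3.27, 3.27, 0.772 and 0.786 CPM in cerebella (log2 difference 5.03, SE 0.41, adjusted p = 1.19e-06). Fosb, at 60.1, 40.1, 18.0 and 63.4 CPM in WT cerebra and 3.57, 1.92, 0.927 and 1.53 CPM in WT cerebella, differed by 4.53 (SE 0.46, adjusted p = 6.90e-06). Arc, at 30.8, 34.9, 23.9 and 20.3 CPM in cerebella, differed by 4.36 (SE 0.38, adjusted p = 1.78e-06), and Ptgs2, at 17.2, 18.1, 9.37 and 26.4 CPM in cerebra, by 4.15 (SE 0.42, adjusted p = 5.93e-06). These 6 had every cerebrum above every cerebellum. Dusp5 alone went the other way: it was at 90.7, 52.1, 119 and 103 CPM in WT cerebella, above every cerebrum, and differed by -2.04 (SE 0.26, adjusted p = 3.61e-05).

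**Figure D2:**
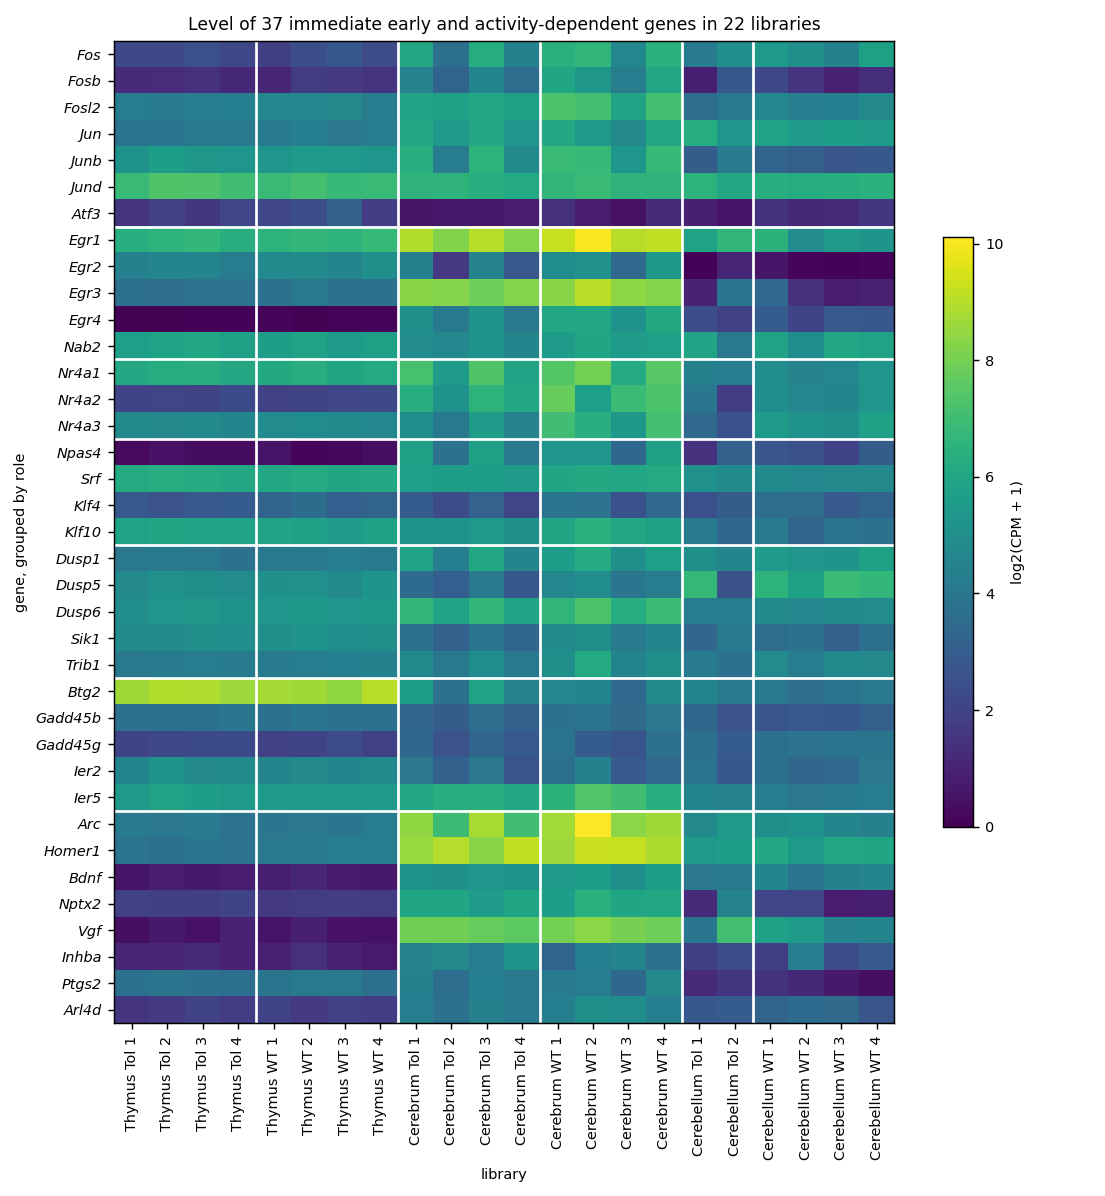
Level of each of the 37 genes in each of the 22 libraries, as log2(CPM + 1), with genes in rows grouped by role and libraries in columns grouped by organ and genotype. Within cerebrum, the columns Tol 2, Tol 4 and WT 3 are darker than their neighbours for most genes from Fos to Dusp6, while thymus columns differ little.

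Levels of the members varied more between mice in cerebrum than those of most genes. The median over the 37 members of the SD of log2(CPM + 1) was 0.413 among the 4 Tol cerebra and 0.484 among the 4 WT cerebra, against 0.134 and 0.147 over the 15596 genes tested there, and 33 and 35 members exceeded the median of all genes. In WT cerebella it was 0.332 against 0.175. In thymus it was 0.124 against 0.130 in Tol and 0.144 against 0.109 in WT mice, and 17 and 25 of the 35 members tested there exceeded the median of all genes. The widest spread was that of Egr2 in Tol cerebra, Npas4 in WT cerebra and Egr3 in WT cerebella. Srf had the smallest spread of all members in each of these 3 groups.

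Most members were high or low in the same cerebra. In Tol 2 and Tol 4 together, levels were below those of Tol 1 and Tol 3 for 28 of 37 members, an order found in 18.6% of the genes tested. WT 3 was the lowest of the WT cerebra for 26 members, against 26.6% of all genes. Both orders held for 24 members (8.8% of all genes), among them Fos, Junb, Egr1, Nr4a1, Npas4 and Arc. These orders were read from the members themselves, after their values were seen, so the counts describe them and test nothing.

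Fos was at 68.5, 12.5, 76.3 and 20.9 CPM in Tol cerebra 1 to 4 and 84.3, 99.1, 25.5 and 85.8 CPM in WT cerebra 1 to 4. Junb, at 79.1, 18.5, 92.4 and 27.3 CPM in Tol and 110.2, 108, 38.6 and 109.6 CPM in WT cerebra, had the same 3 libraries low. In both genes WT 3 lay below Tol 1 and Tol 3 and above Tol 2 and Tol 4. Npas4 was at 54.2, 12.6, 52.8 and 15.7 CPM in Tol and 38.9, 37.2, 9.37 and 52.0 CPM in WT cerebra, and its group means were nearly equal. Nr4a1 was at 144, 45.3, 162 and 59.0 CPM in Tol and 170.1, 252, 74.3 and 177 CPM in WT cerebra. WT 2 was its highest and WT 3 its lowest WT cerebrum. Egr1 (489, 290.0, 523 and 299.6 CPM in Tol, 619, 1041, 515 and 559 in WT) and Arc (343, 119.7, 446 and 129 CPM in Tol, 415, 1105, 325 and 401 in WT) had in addition a single high library, WT 2. Btg2, at 49.9, 13.1, 59.0 and 21.2 CPM in Tol and 24.6, 22.9, 9.85 and 26.7 CPM in WT cerebra, kept the order within each genotype but had the higher mean in Tol mice.

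Some other measures set these 3 libraries apart and some did not. The 13 mitochondrially encoded mRNAs summed to 106814 CPM in Tol 2, 96030 in Tol 4 and 101318 in WT 3, against 78359 to 97873 in the other 5 cerebra, where WT 2 was the highest. The 10 heat shock chaperones summed to 4121, 4114 and 4145 CPM in the 3 libraries and to between 4308 and 4636 in the others. The 5 erythroid markers summed to 144, 122 and 115 CPM, against 162 to 230 CPM in the others. The 7 genes used as Purkinje cell markers in cerebellum summed to 1425, 1332 and 1424 CPM, against 900 to 1136 CPM. In cerebrum they need not mark that cell type. Striatal markers were high in Tol 4 and WT 3 but not in Tol 2 (247 CPM). The 12 markers of excitatory forebrain neurons summed to 9207, 6822 and 7230 CPM, within the 6535 to 8866 CPM of the others except for Tol 2. Of 28 other rapidly induced genes that are no members, such as Tiparp, Per1 and Klf2, 27 were tested in cerebrum and 9 of them had both orders (8.8% of all genes). So did 3 of the 5 erythroid markers, 3 of the 10 heat shock chaperones and 3 of 8 genes of the glucocorticoid response. Per1 is in both the rapidly induced and the glucocorticoid list. None of the markers of oligodendrocytes, microglia, endothelium or striatal projection neurons had both orders. The part of these measures in the variation of the members was not tested.

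**Figure D3:**
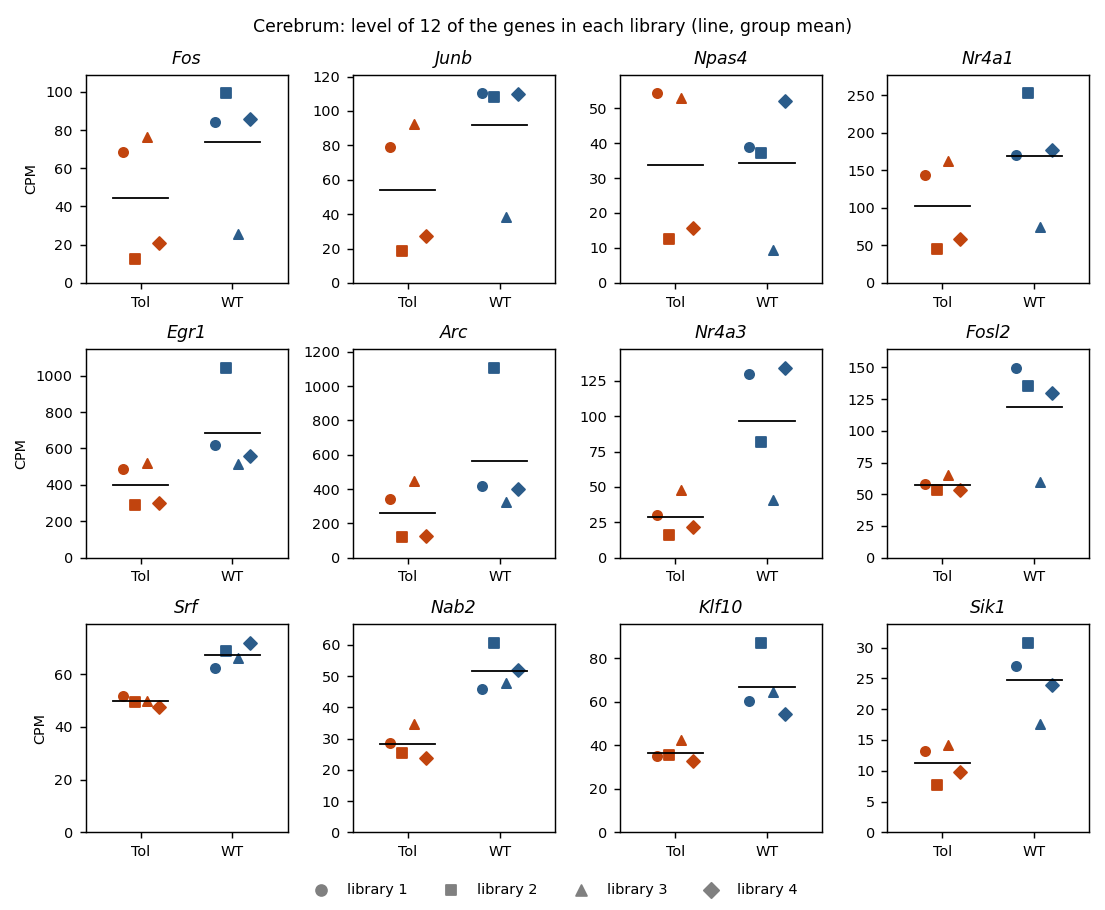
CPM of 12 members in each of the 8 cerebrum libraries, with Tol on the left and WT on the right, 1 marker shape for each library number and the group mean as a line; a number shared by Tol and WT does not mark the same mouse. Fos, Junb, Npas4 and Nr4a1 show Tol 2, Tol 4 and WT 3 low, while in the bottom row Srf, Nab2, Klf10 and Sik1 have all 4 Tol libraries below all 4 WT libraries.

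The effect of the transgene in cerebrum was then tested in the 8 cerebra with edgeR's quasi-likelihood test. No member passed an adjusted p of 0.05, and neither did any other of the 15596 genes (0%, with 1506 at an unadjusted p under 0.05). By direction, 34 members were lower and 3 higher in Tol mice (51.4% of all genes were lower), with a median log2 fold change of -0.64 against -0.005 over all genes. At an unadjusted p under 0.05 stood 19 members, all lower, against 4.85% of all genes lower at that limit. Most members were high or low in the same cerebra, so these counts are not 37 separate observations of the transgene. The members were also chosen with earlier results of these data known. DESeq2 called 8 members, all lower (Srf, Sik1, Nab2, Nr4a3, Fosl2, Dusp5, Klf10 and Egr4), among 187 genes. For 4 members every Tol cerebrum was below every WT cerebrum (3.16% of all genes), and for none was every Tol cerebrum above (3.29%).

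Of these 4 members, 3 did not have both orders of libraries. Srf, the serum response factor, was at 51.7, 49.6, 49.9 and 47.8 CPM in Tol cerebra and 62.5, 68.8, 66.1 and 71.9 CPM in WT cerebra, a log2 fold change of -0.43 (SE 0.06, adjusted p = 0.143). Nab2 was at 28.5, 25.5, 34.8 and 23.8 CPM in Tol and 45.8, 60.7, 47.7 and 51.9 CPM in WT cerebra (log2 fold change -0.87, SE 0.13, adjusted p = 0.147), and Klf10 at 35.2, 35.4, 42.4 and 32.9 CPM in Tol cerebra and 60.2, 87.2, 64.8 and 54.7 CPM in WT cerebra (log2 fold change -0.87, SE 0.15, adjusted p = 0.157). Tol 2 and Tol 4 did not stand apart in Klf10, nor was WT 3 the lowest WT cerebrum in any of these 3 genes. Sik1, a kinase that holds back CREB coactivators, was at 13.2, 7.76, 14.3 and 9.74 CPM in Tol and 26.9, 30.7, 17.5 and 23.9 CPM in WT cerebra (log2 fold change -1.13, SE 0.22, adjusted p = 0.187), and it is the 1 of the 4 that also had both orders of libraries. Fosl2, the AP-1 subunit Fra-2, was at 58.1, 53.7, 64.9 and 53.1 CPM in Tol and 149, 135, 59.4 and 130.03 CPM in WT cerebra (log2 fold change -1.04, SE 0.24, adjusted p = 0.236). Its groups overlapped in WT 3 alone. Without WT 3 its log2 fold change was -1.26 with an adjusted p of 0.00206, and it was then called with 6 other genes. In the 6 cerebra with few striatal markers it was -1.23 with an adjusted p of 0.0181, a choice of libraries made after the markers were seen.

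By role, the 3 NR4A receptors had the lowest median in cerebrum, -0.95, with Nr4a3 at -1.74 (SE 0.42) on the log2 scale, followed by the EGR group at -0.87 and the feedback genes at -0.86. AP-1 genes had a median of -0.75, the other transcription factors -0.65, the growth arrest and early response genes -0.35 and the synaptic and secreted effectors -0.25. Within the last group Arc stood at -1.12 (SE 0.52) and Homer1, a scaffold of the postsynapse, at -0.23 (SE 0.21), while Inhba, a subunit of activin, stood at 0.67 (SE 0.31), examples chosen after their values were seen. None of these passed an adjusted p of 0.05. The 8 genes of the glucocorticoid response, which are no members, summed to 432 to 549 CPM with the transgene and 599 to 817 CPM without it, with no overlap, and whether they have a part in the difference of the members was not tested.

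**Figure D4:**
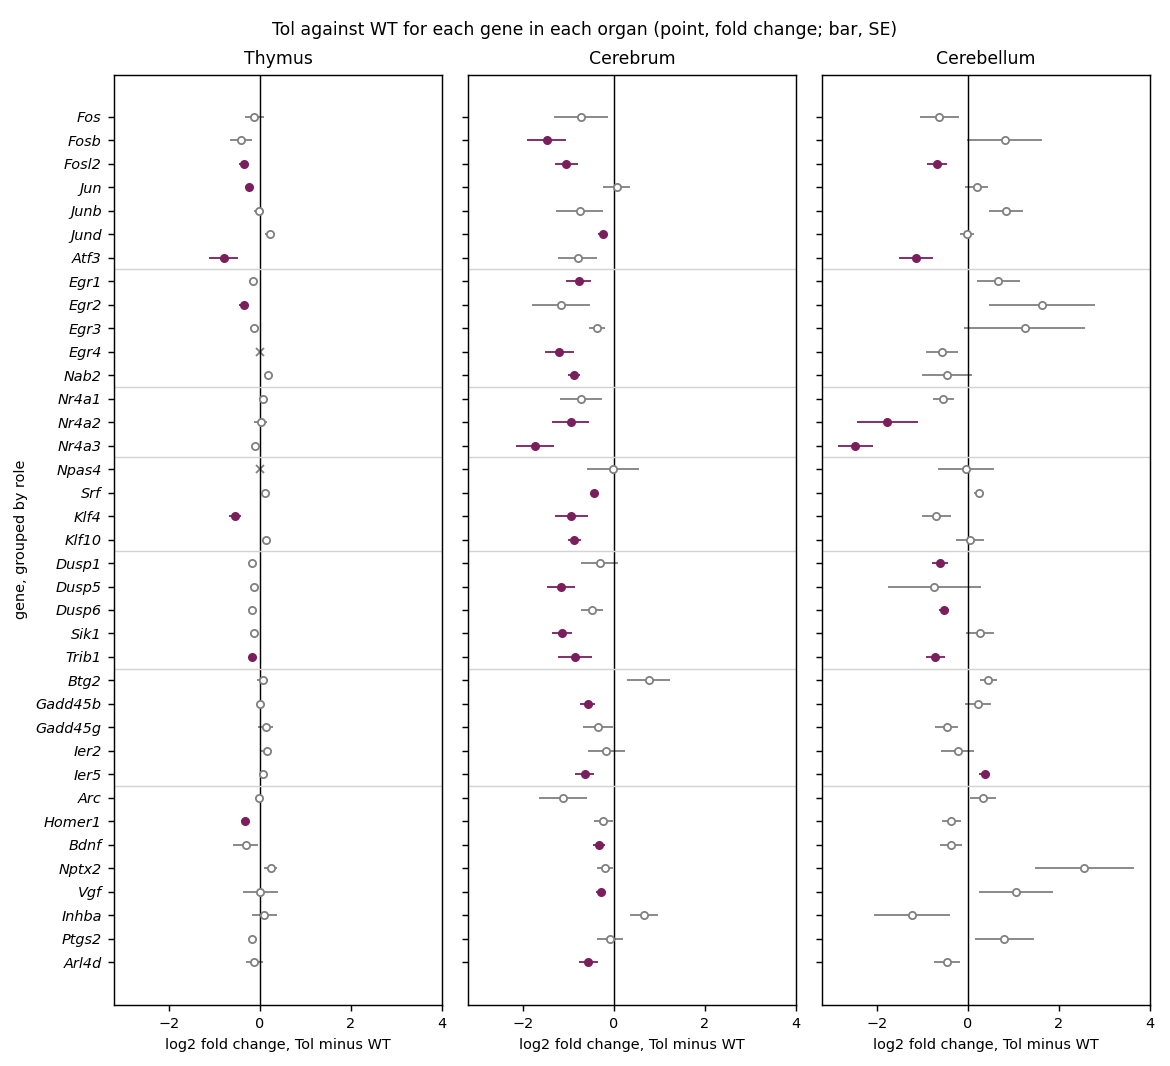
Log2 fold change of Tol against WT for each of the 37 genes in thymus, cerebrum and cerebellum, with the SE as a bar; filled points have an unadjusted p under 0.05, open points do not, and crosses at 0 mark Egr4 and Npas4 in thymus, which were not tested. In cerebrum 34 of 37 points lie left of 0, while thymus points lie close to 0 and cerebellum points scatter to both sides.

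In thymus the log2 fold changes of the members ran from -0.80 to 0.24. The test kept 35 of them, since Egr4 (1 to 3 counts a library) and Npas4 (2 to 10 counts) were below its filter on low counts. None of the 35 passed an adjusted p of 0.05, against 16 of 16248 genes (0.0985%), and the median log2 fold change was -0.12 against 0.01 over all genes. Lower at an unadjusted p under 0.05 were 7 members, and 11.1% of all genes met that. DESeq2 called 4 members, all lower (Klf4, Homer1, Fosl2 and Egr2), but among 1296 genes. Leaving out Thymus Tol 1, the deepest library, gave 2978 genes with Klf4 and Homer1 lower and Jund higher among them, while leaving out Tol 2, Tol 4, WT 1, WT 2 or WT 3 gave 0 genes, with 2573 to 4232 at an unadjusted p under 0.05.

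Klf4, a factor of quiescence, was at 6.01, 5.07, 6.02 and 6.64 CPM in Tol thymi 1 to 4 and 8.55, 10.8, 7.19 and 8.31 CPM in WT thymi 1 to 4, with a log2 fold change of -0.55 (SE 0.13, adjusted p = 0.0832). Homer1 was at 14.0, 11.97, 14.8 and 13.2 CPM in Tol and 15.5, 16.3, 18.2 and 18.3 CPM in WT thymi (log2 fold change -0.34, SE 0.09, adjusted p = 0.0860). Neither gene overlapped between the genotypes, with Tol thymi lower, which held for 5.5% of all genes. Egr2 was at 20.8, 23.8, 22.3 and 18.3 CPM in Tol and 27.1, 26.7, 23.4 and 31.5 CPM in WT thymi (log2 fold change -0.35, SE 0.10, adjusted p = 0.0937), Fosl2 at 18.2, 17.0, 19.1 and 19.4 CPM in Tol thymi and 24.3, 25.4, 26.03 and 18.4 CPM in WT thymi (log2 fold change -0.35, SE 0.11, adjusted p = 0.112), and Jun at 13.9, 14.2, 15.7 and 15.6 CPM in Tol thymi and 16.9, 19.6, 14.9 and 18.5 CPM in WT thymi (log2 fold change -0.23, SE 0.09, adjusted p = 0.144). These 3 overlapped between the genotypes. Nptx2 was the 1 member whose Tol thymi all lay above the WT thymi (6.11% of all genes), at 2.86, 2.81, 2.66 and 3.17 CPM in Tol thymi and 2.26, 2.52, 2.59 and 2.39 CPM in WT thymi. The 5 feedback genes had log2 fold changes of -0.18 to -0.12 and the 5 growth arrest and early response genes of 0.01 to 0.15, with none called. The best known immediate early genes overlapped between the genotypes in thymus: Fos was at 3.73, 3.68, 4.51 and 3.55 CPM in Tol and 2.73, 4.36, 5.90 and 3.92 CPM in WT thymi, Egr1 at 78.9, 91.0, 103 and 78.9 CPM in Tol thymi and 92.2, 101, 91.9 and 108 CPM in WT thymi, and Nr4a1 at 67.4, 76.1, 81.9 and 67.1 CPM in Tol thymi and 69.6, 77.5, 61.5 and 71.3 CPM in WT thymi. Junb was at 34.2, 50.1, 39.9 and 38.3 CPM in Tol thymi and Arc at 16.6, 14.9, 16.9 and 13.4 CPM, and both overlapped the WT thymi given above. In the same thymi the glucocorticoid genes summed to 480 to 519 CPM with the transgene and 575 to 668 CPM without it, and the heat shock chaperones to 2371 to 3037 and 3309 to 3842 CPM. The 7 markers of thymic epithelium summed to 1005 to 1140 CPM with the transgene and 954 to 997 CPM without it, and the 6 of skeletal muscle to 20.1 to 22.9 and 15.8 to 18.9 CPM. The part of these 4 lists in the differences was not tested.

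Whether the effect of the transgene differed between cerebrum and thymus was tested with the interaction term over the 16 libraries of both organs. That fit shared a single estimate of the spread per gene between the organs, although the median SD of the members was larger in cerebrum than in thymus. The 3 members Nab2, Klf10 and Srf passed an adjusted p of 0.05, all with a lower effect in cerebrum, against 19 of 17774 genes (0.107%) in all and 0.0675% lower. The difference of the log2 fold changes, cerebrum minus thymus, was -1.05 (SE 0.17, adjusted p = 0.0334) for Nab2, -1.01 (SE 0.17, adjusted p = 0.0341) for Klf10 and -0.55 (SE 0.09, adjusted p = 0.0341) for Srf. In thymus Nab2 was at 51.4, 58.0, 64.5 and 53.1 CPM in Tol and 49.1, 55.6, 42.7 and 52.6 CPM in WT mice, Klf10 at 57.9, 62.4, 58.8 and 56.7 CPM in Tol thymi and 59.6, 54.7, 47.1 and 53.7 CPM in WT thymi, and Srf at 71.3, 77.0, 73.1 and 67.7 CPM in Tol thymi and 66.0, 73.7, 60.1 and 67.9 CPM in WT thymi. The thymi thus overlapped between the genotypes in each of the 3 genes, with the Tol mean above the WT mean, whereas the cerebra did not overlap and Tol was lower. Over all 37 members, which are not independent of each other, 32 had a lower effect in cerebrum (51.5% of all genes), and the median was -0.55 against -0.01. These calls lay near the threshold: with the replicate number as a block no member passed (adjusted p = 0.0602 for Nab2 and Klf10 and 0.0605 for Srf), and in the 6 cerebra with few striatal markers none did either (0.0516 for Nab2, 0.0647 for Klf10 and Srf). With 1 library left out, Nab2 and Klf10 were each called in 5 of 16 fits and Srf in 3 of 16, with adjusted p from 0.0118 to 0.0998 over the 3 genes. All 3 were called without Thymus Tol 1 or Cerebrum WT 3, and none without Thymus Tol 2, Tol 4, WT 1, WT 3 or WT 4, or without Cerebrum Tol 1, Tol 2, Tol 4 or WT 1.

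The cerebellum allowed a comparison of 2 Tol with 4 WT libraries, and the library labelled cerebellum Tol 2 lacked most of the granule and Purkinje cell signal. No member passed an adjusted p of 0.05, nor did any of the 16662 genes (0%, with 527 at an unadjusted p under 0.05). At an unadjusted p under 0.05 stood 8 members (3.16% of all genes), 7 of them lower (1.22%) and Ier5 higher. DESeq2 called Nr4a3 and Dusp6, both lower, among 9 genes. The median log2 fold change was -0.22 against 0.01 over all genes, and -0.46 without the library labelled cerebellum Tol 2. Without overlap 8 members were lower (5.26% of all genes) and 2 higher, Ier5 and Btg2 (5.2%).

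Nr4a3 was at 10.1 and 4.84 CPM in the libraries labelled cerebellum Tol 1 and 2 and 47.6, 34.7, 31.7 and 53.8 CPM in WT cerebella 1 to 4, with a log2 fold change of -2.47 (SE 0.38, adjusted p = 0.957), and -2.06 without the library labelled cerebellum Tol 2. All 3 NR4A receptors were lower in both Tol libraries than in every WT cerebellum. Dusp6, a cytoplasmic phosphatase of ERK, was at 18.3 and 18.4 CPM in Tol and 27.8, 24.9, 27.0 and 28.1 CPM in WT cerebella (log2 fold change -0.53, SE 0.10, adjusted p = 0.957), and -0.55 without that library. Dusp1, a phosphatase of stress-activated kinases, was at 31.4 and 24.2 CPM in Tol cerebella and 45.4, 38.0, 36.8 and 52.3 CPM in WT cerebella (log2 fold change -0.61, SE 0.18, adjusted p = 0.957, and -0.46 without it). Both phosphatases had the 2 Tol libraries below all WT libraries. Trib1, a pseudokinase that scaffolds ubiquitin ligases, was at 16.9 and 13.1 CPM in Tol cerebella and 28.1, 18.2, 27.3 and 26.3 CPM in WT cerebella (log2 fold change -0.71, SE 0.22, adjusted p = 0.957, and -0.56 without it), and Fosl2 at 11.1 and 16.2 CPM in Tol cerebella and 24.7, 19.2, 19.6 and 25.8 CPM in WT cerebella (log2 fold change -0.68, SE 0.22, adjusted p = 0.957, -1.01 without it and -0.42 without cerebellum Tol 1).

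Some members differed widely between the 2 Tol cerebella, and 4 such genes, chosen after their values were seen, are given. Dusp5 was at 104 and 4.68 CPM in the libraries labelled cerebellum Tol 1 and 2, Nptx2 at 1.32 and 21.8 CPM, Vgf at 14.6 and 132 CPM and Egr3 at 1.03 and 14.6 CPM. For Dusp5, Nptx2 and Egr3 the first library lay within the range of the WT cerebella, and for Vgf below it. The second lay outside that range for all 4 genes, below it for Dusp5 and above it for the other 3. Of the best known genes, Fos was at 16.8 and 30.4 CPM in Tol cerebella and Nr4a1 at 20.0 and 19.0 CPM, beside 29.8, 22.1, 25.3 and 38.5 CPM in WT cerebella. Egr1 was at 56.0 and 95.9 CPM in Tol and 88.3, 28.5, 41.7 and 36.9 CPM in WT cerebella, and Arc at 25.7 and 42.0 CPM in Tol cerebella, both overlapping the WT range. Junb was at 6.89 and 16.8 CPM and Npas4 at 1.69 and 7.90 CPM in the Tol libraries, and for both genes the library labelled cerebellum Tol 2 lay above every WT cerebellum. The glucocorticoid genes summed to 408 and 342 CPM in the Tol libraries and 520 to 593 CPM in WT cerebella, and their part in these differences was not tested.

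Pathway genes around the members were listed by their known roles. Of 21 kinases and phosphatases upstream, 22 resident transcription factors, 28 other rapidly induced genes and 19 later activity-dependent genes, none passed an adjusted p of 0.05 between Tol and WT in any organ with edgeR. DESeq2 called 10 of them in cerebrum, 4 in thymus and 1 in cerebellum, out of 187, 1296 and 9 genes that it called in these organs. The genes tested there numbered 15596, 16248 and 16662. In cerebrum 23 of the 27 rapidly induced genes tested were lower in Tol mice (51.4% of all genes), with a median of -0.36, and 8 were lower without overlap (3.16%) and 1 higher (3.29%). The resident transcription factors were split, 11 lower and 11 higher, with 3 higher without overlap and 0 lower. Their sum was 2857 to 3136 CPM in Tol cerebra against 2595 to 2687 CPM in WT cerebra. Mef2c alone made up a mean of 1066 CPM of it in Tol and 805 CPM in WT cerebra, so the sum does not show a shift of the whole list. The medians of the kinases, the resident factors and the later genes were 0.02, 0.01 and -0.04. Among the rapidly induced genes the lowest p in cerebrum was that of Tiparp, a PARP enzyme. Its log2 fold change was -1.03 (SE 0.17, adjusted p = 0.157), and its adjusted p reached 0.0451 without WT 3. Grasp, a scaffold of glutamate receptors, led the later genes at -0.49 (SE 0.08, adjusted p = 0.147). It was the 1 gene of the 4 lists called in the interaction, at -0.65 (SE 0.12, adjusted p = 0.0448). Mef2c, a neuronal transcription factor, and the kinase Braf led the other 2 lists in cerebrum, at 0.41 (SE 0.10, adjusted p = 0.265) and 0.19 (SE 0.06, adjusted p = 0.318). DESeq2 called all 4 of these genes.

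In thymus the lowest p in each list belonged to Per1, a clock and glucocorticoid target gene, at -0.39 (SE 0.07, adjusted p = 0.0548), Baz1a at -0.46 (SE 0.08, adjusted p = 0.0607), Creb1, which encodes CREB, at -0.29 (SE 0.08, adjusted p = 0.0927), and Hras at 0.28 (SE 0.08, adjusted p = 0.0937). All 4 were under 0.05 without Thymus Tol 1 and with DESeq2. In cerebellum they were Per1 at -0.87 (SE 0.12), Nab1 at -0.43 (SE 0.15), Map2k1 at 0.27 (SE 0.11) and Kcnj2 at 1.56 (SE 0.83), each with an adjusted p of 0.957, and DESeq2 called Per1 alone. Without the library labelled cerebellum Tol 2 Kcnj2 turned to -0.42, Nab1 came to -0.22 and Map2k1 to 0.15, and without Tol 1 they were 2.36, -0.69 and 0.37.

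The mean over the 37 members of log2(CPM + 1) gathered these values into 1 number per library. It was 3.73, 3.87, 3.88 and 3.803 in Tol thymi 1 to 4 and 3.84, 3.97, 3.88 and 3.88 in WT thymi. In cerebra it was 5.47, 4.72, 5.55 and 4.87 in Tol and 5.83, 6.04, 5.22 and 5.85 in WT mice, and in cerebella 3.63 and 3.75 in Tol and 4.15, 3.82, 3.76 and 3.94 in WT mice. Every cerebrum was therefore above every thymus and cerebellum. Tol minus WT came to -0.07 (thymus), -0.58 (cerebrum) and -0.23 (cerebellum), beside SDs of 0.07 and 0.06, 0.42 and 0.35, and 0.08 and 0.17 within the Tol and WT groups. Without WT cerebellum 1 the cerebellum difference was -0.15. The genotypes overlapped in both thymus and cerebrum, whereas the 2 Tol cerebellum libraries lay below the 4 WT ones. The gap was small: the library labelled cerebellum Tol 2 stood at 3.745 and WT cerebellum 3 at 3.764. That Tol library also lacked most of the granule and Purkinje cell signal. Since the members were chosen with results of these data known, the differences are given without a test.

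**Figure D5:**
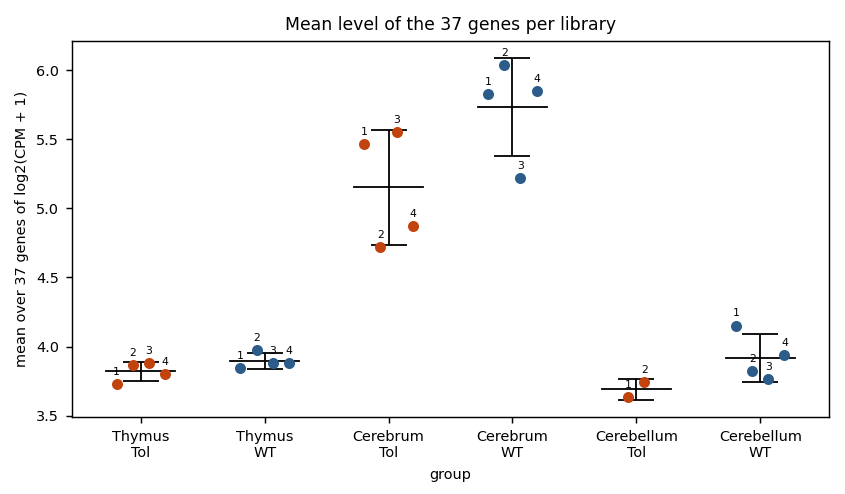
Mean of log2(CPM + 1) over the 37 genes in each library, numbered by library, for each organ and genotype, with the group mean as a line and the SD as a bar. Cerebra lie between 4.72 and 6.04 with WT 3, Tol 2 and Tol 4 lowest, and thymi and cerebella between 3.63 and 4.15.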

How the data were processed

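Messenger RNA from frozen thymus, cerebrum and cerebellum of Tol and WT mice was sequenced in 22 libraries prepared with a stranded poly(A) kit and read from a single end. The authors quantified reads with Salmon 0.14.1 against GRCm38 transcripts and deposited estimated counts per gene, which were rounded to whole numbers here. The Ensembl release, the summing of transcripts to genes and the use of strand are not given in the sources used here. The submitters' processing notes also name edgeR 3.9. Columns headed MRT were read as Tol, and 0 columns were left unused. Gene names, exons and coordinates came from GENCODE vM21, which held 34530 of the 34585 identifiers. The transgene's own row entered the fits but was not counted among the genes.

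Each organ was fitted by itself, the WT libraries of the 3 organs together, and thymus and cerebrum together for the interaction, with edgeR 4.0.16 in R 4.3.3 (filterByExpr, TMM, the quasi-likelihood F test, Benjamini-Hochberg adjustment over all genes tested, threshold 0.05). Printed levels are CPM on TMM library sizes over all 22 libraries. Log2 levels used a pseudocount of 1. Fold changes and p-values were printed for the 5 members of lowest p in each organ, for the 6 largest called differences in each direction between WT organs, for the 3 members of lowest p in the interaction and for the gene of lowest p in each pathway list and organ. Other examples were chosen with their values in view. The members and all lists were chosen with earlier results of these data known. Alternatives were DESeq2 1.42.0, DESeq2's size factors, no filter, the replicate number as a block, other lengths and pseudocounts, and leaving out each library. Fits were tested on simulated data. Python 3.11.15 made the summaries.

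No 2 of the 31 pairs of replicates held identical counts, and their chi-square per degree of freedom ran from 4.98 to 208. The labels name separate mice only by number, so p-values measure the spread between these libraries. Intervals cover counting error only. At the depth of each library, 3 counts were the floor of detection.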

Additional observations from a re-analysis of the deposited data

Results flagged for a closer look

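In groups of 4 libraries, 105 sets of values were tested for a library far from the others, of which chance flags about 1 in 20, or 5.25, and 7 were found. The total count stood apart in Thymus Tol 1 (34776973, the next 20527399), Thymus WT 4 (29145285, the next 17940261) and Cerebrum Tol 4 (14543698, the next 22147602). Among the members, Egr2 was high in WT cerebellum 1 at 0.546 CPM (the next 0.0873), a library that also had more Slc17a6 than WT cerebella 3 and 4. Junb was low in WT cerebrum 3 at 38.6 CPM (the next 108). Arc was high in WT thymus 4 at 17.8 CPM (the next 15.3) and in WT cerebrum 2 at 1105 CPM (the next 415).

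The effect of the transgene differed between cerebrum and thymus by the interaction term for 3 members, with calls near the threshold. On the log2 scale its effect in cerebrum minus its effect in thymus came to -1.05 (Nab2), -1.01 (Klf10) and -0.55 (Srf), with every Tol cerebrum below every WT cerebrum in each. With 1 library left out, Nab2 and Klf10 were each called in 5 of 16 fits and Srf in 3 of 16. No member passed with the replicate number as a block, and edgeR called none of the 3 in cerebrum or thymus alone.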

How the results depend on the processing

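Of the results for single genes 789 alternative values kept their direction and side of the threshold, 31 passed it anew, 54 no longer passed and 1 reversed, Kcnj2 in cerebellum at -0.42 without the library labelled cerebellum Tol 2 (2.36 without Tol 1). DESeq2 called 1296 genes and 4 members (thymus), 187 and 8 (cerebrum), 9 and 2 (cerebellum), and 495 and 5 (interaction). Without the filter on low counts 130 genes were called in thymus. In the 6 cerebra with few striatal markers, a choice made after the data were seen, 2 genes and 1 member were called in cerebrum, and 11 genes and 0 members in the interaction. With WT cerebella 3 and 4 alone, also chosen later, the median of cerebellum against thymus was -0.24. The median over members in place of the mean gave a difference of -0.17 in thymus. The causes were not tested.

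Leaving out 1 library at a time gave 0 to 2978 genes and 0 to 3 members called in thymus, with a median of -0.15 to -0.047 and a mean level difference of -0.10 to -0.04 (cerebrum -0.75 to -0.44, cerebellum -0.28 to -0.15). In cerebrum it gave 0 to 7 genes and 0 to 1 members, and in cerebellum 0 to 2 genes and a median of -0.46 to -0.082. The interaction called 2 to 1116 genes and 0 to 6 members. The median ran from -0.15 to 0.0096 in WT cerebellum against thymus and from 1.37 to 1.87 in WT cerebrum against cerebellum.

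Libraries of Tol and WT mice with the same number did not all deviate together (correlations of thymus -0.18 to 0.07, cerebrum -0.41 to 0.48, cerebellum -0.20 to 0.68, 0, 2 and 1 pairs best with their own number), and between WT organs they were weak (cerebrum and thymus -0.012 to 0.063, cerebellum and thymus 0.018 to 0.080, cerebrum and cerebellum 0.017 to 0.12, with 2, 3 and 2 pairs best with their own number). In these 3 WT comparisons the mean for the same number was 0.036, 0.044 and 0.067, against -0.012, -0.015 and -0.022 for other numbers. Not every pair exceeded 0.1 in any comparison, so the numbers are not taken to pair samples. That limit cannot exclude pairing. With the replicate block 5 genes were called in thymus, and 4 genes and 0 members in the interaction.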
